A study of Mus musculus with 24 samples.

Results

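The genes of the mitochondrial protein import machinery were followed through the liver and the inguinal white adipose tissue (iWAT, a fat depot under the skin) of Mrs2 knockout (KO) and wild-type (WT) mice. They were taken by symbol, as the protein-coding genes of the Timm and Tomm families with a number in their name and 11 further import genes (Pam16, Dnajc19, Grpel1, Hspa9, Hspd1, Hspe1, Samm50, Mtx1, Mtx2, Chchd4 and Gfer), which gave 36 of the 54532 genes in the table. Mrs2 carries magnesium ions across the inner mitochondrial membrane. The 8 groups were KO on Western diet (WD), WT on WD, KO on chow and WT on chow, in liver and in iWAT, with 3 libraries each. Diets began at 13 weeks of age and lasted 52 weeks, and RNA came from 50 mg of liver or 100 mg of iWAT, both taken as powder of the whole organ. The knockout allele and the sex of the mice are not given in the labels.

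Nearly all mitochondrial proteins are made in the cytosol and must cross or enter the mitochondrial membranes. The TOM complex of the outer membrane receives them, and they then part ways: the SAM complex builds barrel-shaped proteins into the outer membrane, a disulfide relay traps small proteins between the membranes, and the small TIM chaperones carry hydrophobic proteins to the TIM22 complex. Proteins with a cleavable presequence pass through the TIM23 complex of the inner membrane and are pulled into the matrix by a motor built around the chaperone Hspa9, after which the chaperonin of Hspd1 and Hspe1 folds many of them. Tissues rich in mitochondria, such as liver and brown fat, depend heavily on this supply.

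Library depth was 14.7 M to 19.5 M reads in liver and 15.4 M to 20.4 M reads in iWAT (M, mega), and levels are FPKM, fragments per kilobase of gene length scaled to library size. The deposited FPKM carry a further scaling factor per library, and undoing it moved the median log2 fold change of all genes by more than 0.1 in 4 comparisons. It moved from 0.07 to -0.17 for KO against WT livers on WD, from -0.05 to 0.20 for WD against chow in WT liver, from 0.05 to -0.16 for the interaction of genotype and diet in liver, and from -0.003 to -0.61 for liver against iWAT. Mrs2 itself ranged from 1.60 to 2.25 FPKM in KO iWAT, against 2.74 to 5.01 FPKM in WT iWAT over both diets, and from 3.90 to 4.47 FPKM in KO liver on chow, against 5.87 to 6.50 FPKM in WT liver on chow. On WD its level was 4.10, 5.21 and 4.21 FPKM in the livers labelled KO, against 5.10, 4.10 and 5.11 FPKM in the livers labelled WT, which overlap. The genotype of these WD livers therefore rests on the labels alone. That holds for KO against WT liver on WD, for WD against chow in liver of either genotype, and for the interaction in liver. Liver libraries held the hepatocyte markers and iWAT libraries the white adipocyte markers, but 5 libraries also stood apart by markers of another tissue. Skeletal muscle markers were high in KO WD iWAT library 1, WT WD iWAT library 1 and WT chow liver library 3, and pancreatic acinar markers in KO chow liver library 1 and WT WD liver library 2. In tissue RNA, fewer cells of a type and less RNA per cell cannot be told apart.

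Per length of gene, the matrix chaperones were the most abundant import genes in both tissues. Over the 12 libraries, Hspd1 averaged 195.7 FPKM in liver and 91.1 FPKM in iWAT, and Hspa9 averaged 165.0 FPKM in liver and 114.5 FPKM in iWAT. Hspd1 and Hspe1 together made up 27.5% to 30.6% of the summed FPKM of the 36 genes in liver libraries and 18.1% to 22.6% in iWAT libraries. The 5 genes of the import motor made up 21.6% to 26.3% in liver and 20.6% to 30.3% in iWAT. At the low end of the measured genes stood Timm10b, a small TIM that docks at TIM22, with a mean of 1.10 FPKM in liver and 1.23 FPKM in iWAT. Tomm6, Timm8a2 and Tomm20l stayed at or below 0.361 FPKM in every library, and were not tested. Of the exonic bases of Tomm6, 84.2% lie in other annotated genes. The other 33 genes passed the filter of a mean of 0.5 FPKM in both tissues, and the lowest value among them in any library was 0.728 FPKM, so none passed through 1 group alone.

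The promoters of 4 genes show the sequence context of the changes described next. They belong to Hspe1 (the co-chaperonin, whose start site faces that of Hspd1), Grpel1 (the nucleotide exchange factor that resets Hspa9), Timm44 (which tethers Hspa9 to the TIM23 channel) and Tomm70a (an outer membrane receptor). They were chosen because Hspe1, Grpel1 and Timm44 were called in KO iWAT on WD and Hspd1, Grpel1, Timm44 and Tomm70a in liver. Each runs from 250 bases before the start site to 50 after it, in RefSeq's GRCm38.p6, the same build as mm10. Capitals mark matches to the motifs searched, which in these windows are CCGGAAG (the ETS core bound by GABPA), CCAAT (the CCAAT box) and GAANNTTC (a heat shock half-site pair), on either strand.
Hspe1, chr1:55087898-55088197, plus strand: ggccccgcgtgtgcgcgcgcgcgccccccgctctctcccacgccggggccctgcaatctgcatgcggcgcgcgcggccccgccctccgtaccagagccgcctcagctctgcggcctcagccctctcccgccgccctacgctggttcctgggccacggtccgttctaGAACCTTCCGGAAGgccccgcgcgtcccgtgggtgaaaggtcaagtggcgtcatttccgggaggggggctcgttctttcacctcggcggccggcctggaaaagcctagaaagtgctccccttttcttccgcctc
Grpel1, chr5:36464935-36465234, plus strand: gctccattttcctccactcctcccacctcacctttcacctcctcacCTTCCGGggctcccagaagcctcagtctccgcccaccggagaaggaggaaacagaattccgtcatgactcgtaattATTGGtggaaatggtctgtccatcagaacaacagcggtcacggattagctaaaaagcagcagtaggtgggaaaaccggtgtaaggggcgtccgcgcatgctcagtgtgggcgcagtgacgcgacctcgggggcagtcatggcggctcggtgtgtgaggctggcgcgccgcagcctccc
Timm44, chr8:4275856-4276155, minus strand: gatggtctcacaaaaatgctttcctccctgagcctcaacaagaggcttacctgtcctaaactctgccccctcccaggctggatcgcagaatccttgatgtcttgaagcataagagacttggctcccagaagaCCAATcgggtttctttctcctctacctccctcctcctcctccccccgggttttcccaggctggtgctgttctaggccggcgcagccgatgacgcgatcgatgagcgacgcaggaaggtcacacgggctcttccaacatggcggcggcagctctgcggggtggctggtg
Tomm70a, chr16:57121464-57121763, plus strand: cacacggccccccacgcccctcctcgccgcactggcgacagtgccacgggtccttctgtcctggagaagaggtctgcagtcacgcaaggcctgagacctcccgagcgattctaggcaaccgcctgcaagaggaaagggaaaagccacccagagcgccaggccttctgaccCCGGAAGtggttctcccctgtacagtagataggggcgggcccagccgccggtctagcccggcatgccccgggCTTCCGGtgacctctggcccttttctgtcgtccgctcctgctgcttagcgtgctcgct

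How far the Hspe1 window is shared with Hspd1 depends on the start site taken for Hspd1. Of its 300 bases, 285 also lie in the Hspd1 window at 55087883-55088182, but 4 in that at 55088194-55088493. The exons of the 2 genes share 112 bases. In the Hspe1 window, 2 ETS cores overlap in opposite orientations within CTTCCGGAAG, the first of them starting 80 bases before the Hspe1 start site. The heat shock match starts 84 bases before that site and overlaps them. Grpel1 has 1 ETS core 204 bases before its start and a CCAAT box at 128 bases, Timm44 a CCAAT box at 118 bases, and Tomm70a ETS cores at 80 and 8 bases. Of the 32 import genes with a window, 14 (43.8%) held the ETS core, against 13.3% of 16497 protein-coding genes. Among the 14, Hspd1 and Hspe1 count through the same stretch CTTCCGGAAG, as they do for the heat shock match below. Timm8a2, which was not tested, is also among them. For the other motifs searched, the shares were 18.8% of the import genes against 10.03% of genes for the NRF1 core GCGCANGCG, 12.5% against 7.27% for the YY1 core AAGATGG, 34.4% against 42.1% for CCAAT, and 9.38% against 8.44% for GAANNTTC. The core TGATGNAA of ATF4 and CHOP sites was in none of the 32 windows, against 3.99% of genes, and the ERRA core CAAGGTCA in 1 (Timm8b), or 3.13%, against 1.47%. A match describes these letters and shows no binding.

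**Figure D1:**
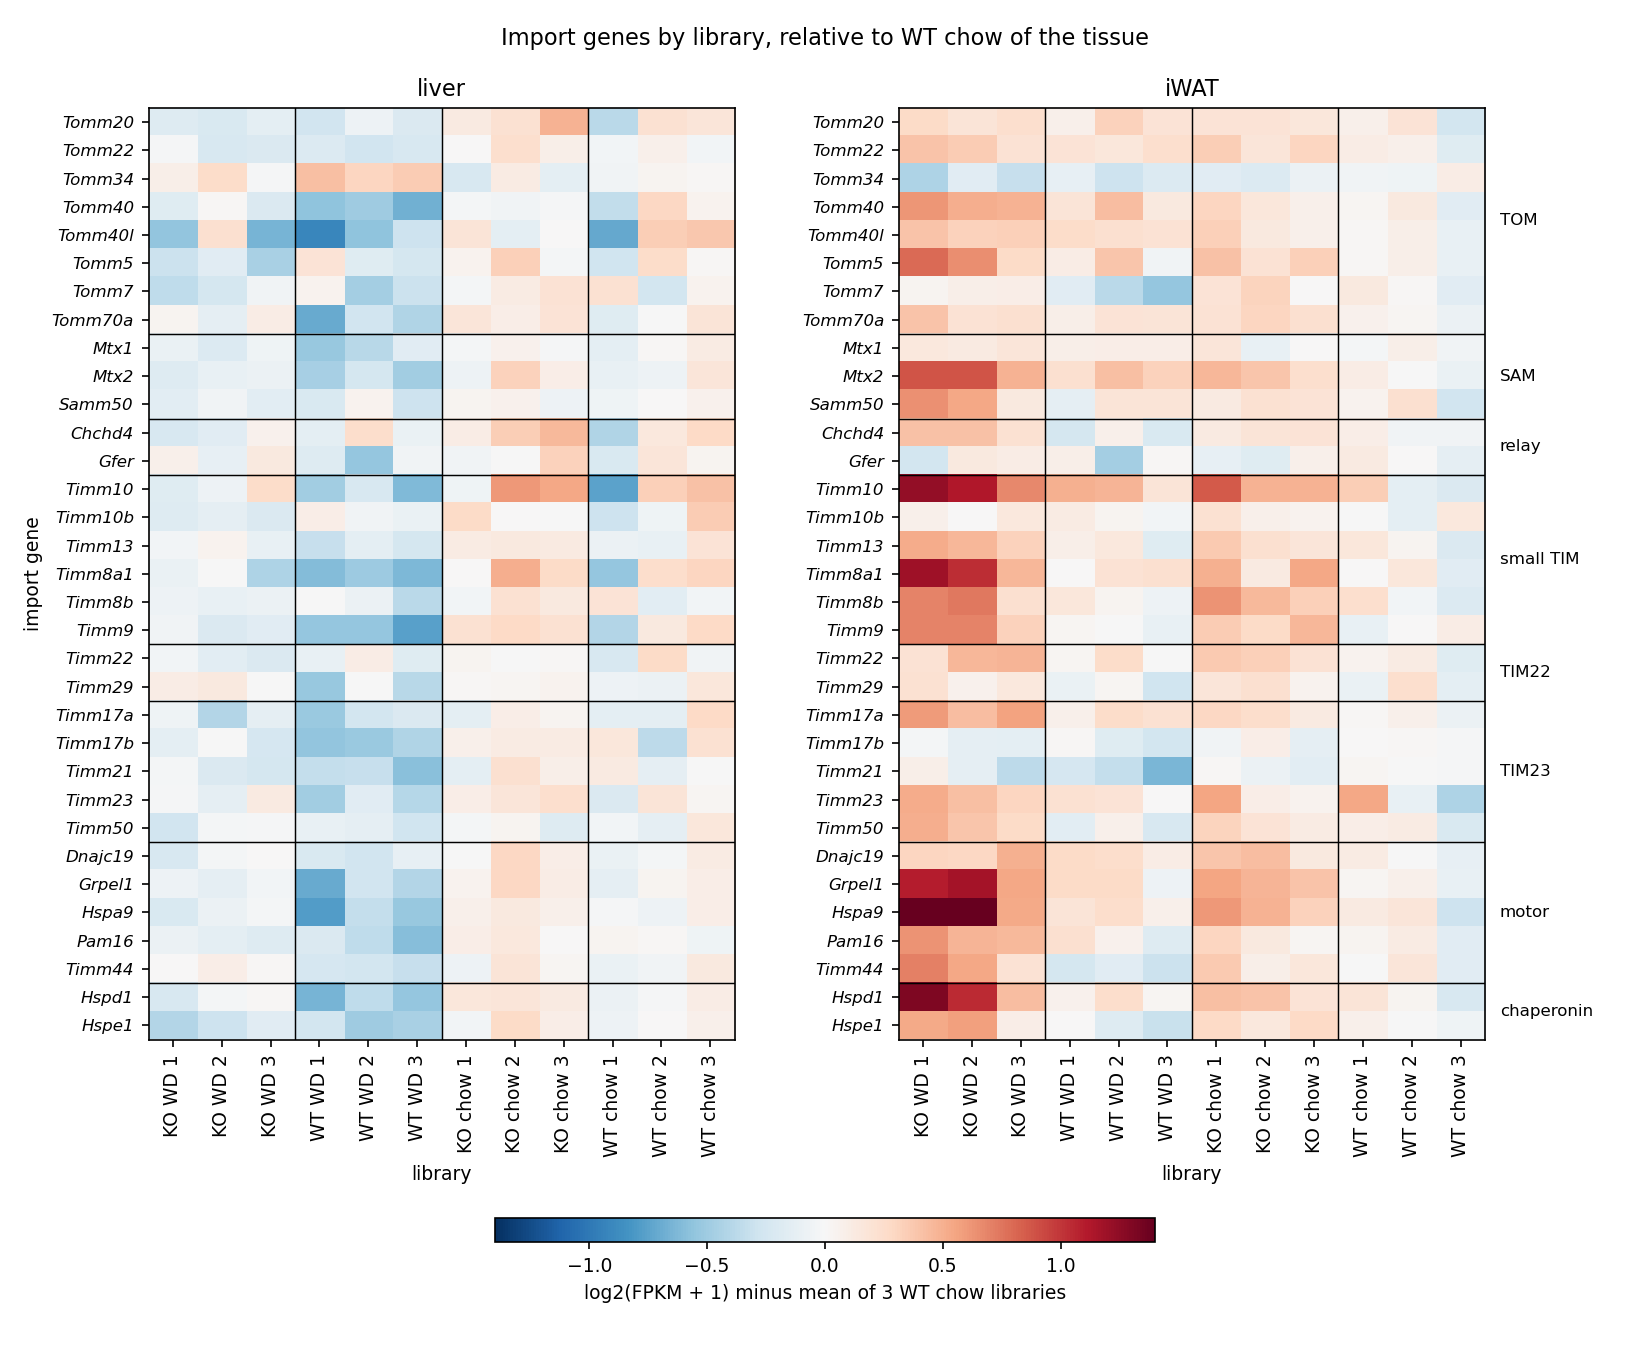
Level of 33 import genes in each library, as log2(FPKM + 1) minus the mean of the 3 WT chow libraries of the same tissue, with liver left and iWAT right and genes grouped by complex. In iWAT most genes are redder in the KO columns of either diet, with motor genes in KO WD libraries 1 and 2 among the reddest, and in liver most genes are bluest in the 3 WT WD columns. Without the deposited scaling factor the WT WD liver columns would be less blue and 16 of the 33 genes would lie above WT chow.

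In iWAT on WD, import genes were higher in KO mice than in WT mice, and the motor had a median log2 fold change of 0.72. Of 33 tested genes 8 rose and 0 fell at an adjusted p under 0.05, where 3.2% of all 14685 genes tested rose and 4.25% were called in either direction. The 8 were Hspa9, Grpel1 and Timm44 of the motor, Hspe1 of the chaperonin, Timm50 and Timm17a of TIM23, the small TIM Timm9 and the oxidoreductase Chchd4. The median log2 fold change was 0.36 over the 33 genes and -0.02 over all genes, and 32 of the 33 lay above 0. Of the 33, 20 had an unadjusted p under 0.05, all higher in KO.

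Hspa9, the matrix Hsp70 that drives import, had 219.9, 208 and 114 FPKM in KO iWAT, against 89.2, 93.6 and 82.7 FPKM in WT iWAT on WD. KO libraries 1 and 2 were far higher than library 3, and even library 3 lay above every WT library. Its log2 fold change was 0.96 ± 0.24 (standard error) with an adjusted p of 0.0497 in limma, the tool behind all adjusted p-values given without another name. Grpel1 (chr5:36464998-36474080, plus strand, mm10) had 33.8, 35.4 and 22.7 FPKM in KO iWAT, against 18.6, 18.6 and 14.5 FPKM in WT iWAT, a log2 fold change of 0.78 ± 0.16 (adjusted p = 0.0292). The groups did not overlap, and 11.6% of the exonic bases of Grpel1 lie under Tada2b on the other strand. Timm44 (chr8:4259731-4275913, minus strand) had 17.8, 15.8 and 12.2 FPKM in KO iWAT, against 8.73, 9.32 and 8.33 FPKM in WT iWAT (log2 fold change 0.72 ± 0.14, adjusted p = 0.0237). Of the other 2 motor genes, the log2 fold change was 0.49 ± 0.12 for Pam16, which holds the J-protein in place, and 0.16 ± 0.10 for Dnajc19, the J-protein that spurs Hspa9, with adjusted p-values of 0.0509 and 0.469.

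The chaperonin had differences of similar size. Hspd1 (chr1:55077835-55088243, minus strand), its ring subunit, had 170.3, 142 and 92.4 FPKM in KO iWAT, against 71.5, 81.3 and 69.7 FPKM in WT iWAT. Its log2 fold change of 0.81 ± 0.21 had an adjusted p of 0.0558. Hspe1 (chr1:55088132-55091307, plus strand), the lid of the ring, had 47.6, 48.9 and 34.8 FPKM in KO iWAT, against 32.7, 28.5 and 26.1 FPKM in WT iWAT (log2 fold change 0.56 ± 0.14, adjusted p = 0.0485). Neither gene's groups overlapped.

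At the inner membrane, all 5 tested TIM23 genes had a log2 fold change above 0, with a median of 0.27, and 2 were called. Timm50, the receptor of TIM23, had 24.02, 22.1 and 20.2 FPKM in KO iWAT, against 14.8, 17.4 and 14.04 FPKM in WT iWAT (log2 fold change 0.49 ± 0.12, adjusted p = 0.0485). Timm17a, 1 of 2 alternative partners of the channel, had 8.01, 7.01 and 7.77 FPKM in KO iWAT, against 5.27, 6.08 and 5.88 FPKM in WT iWAT (log2 fold change 0.35 ± 0.08, adjusted p = 0.0447). Its counterpart Timm17b had 6.43, 5.93 and 5.88 FPKM in KO iWAT, against 6.67, 5.70 and 5.31 FPKM in WT iWAT, and those groups overlapped. Timm23, the channel itself, had 37.5, 35.1 and 32.2 FPKM in KO iWAT, against 30.2, 29.9 and 26.02 FPKM in WT iWAT. Its groups did not overlap, but its log2 fold change of 0.27 ± 0.22 had an adjusted p of 0.575.

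Between the membranes, Chchd4, which oxidises incoming proteins in the disulfide relay, had 3.58, 3.56 and 2.99 FPKM in KO iWAT, against 1.90, 2.60 and 1.96 FPKM in WT iWAT (log2 fold change 0.48 ± 0.10, adjusted p = 0.0311). Gfer, the oxidase that recharges Chchd4, had 9.99, 13.4 and 13.1 FPKM in KO iWAT, against 12.8, 8.43 and 12.2 FPKM in WT iWAT, with overlap. The small TIM Timm9, which with Timm10 forms the ring that shields hydrophobic precursors, had 4.82, 4.83 and 3.50 FPKM in KO iWAT, against 2.66, 2.58 and 2.35 FPKM in WT iWAT (log2 fold change 0.60 ± 0.11, adjusted p = 0.0235). All 6 tested small TIMs lay above 0, with a median log2 fold change of 0.56, and 1 was called. The 8 tested TOM genes had a median of 0.13. Of these, 3 had an unadjusted p under 0.05, limma and edgeR called 0, and DESeq2 called 1, Tomm7, which also had an adjusted p of 0.0491 in the authors' deposited table.

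Among the TOM genes, the pore Tomm40 had 10.9, 10.1 and 9.86 FPKM in KO iWAT, against 7.78, 9.50 and 7.56 FPKM in WT iWAT, groups that stood just apart. The small subunits Tomm5 and Tomm7 had log2 fold changes of 0.42 ± 0.15 and 0.43 ± 0.13 (adjusted p = 0.156 and 0.0893). The receptor Tomm20 had 15.8, 14.9 and 15.4 FPKM in KO iWAT, against 13.7, 16.5 and 14.98 FPKM in WT iWAT, with full overlap. Tomm70a had 9.36, 8.07 and 8.20 FPKM in KO iWAT, against 7.32, 7.98 and 7.93 FPKM in WT iWAT. The receptors Tomm20 and Tomm70a had log2 fold changes of 0.03 and 0.12, beside 0.96 for Hspa9, and the difference between the complexes was not tested. Samm50, the core of the SAM complex, had 18.5, 17.3 and 12.7 FPKM in KO iWAT, against 10.5, 13.2 and 13.1 FPKM in WT iWAT, and its groups overlapped.

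**Figure D2:**
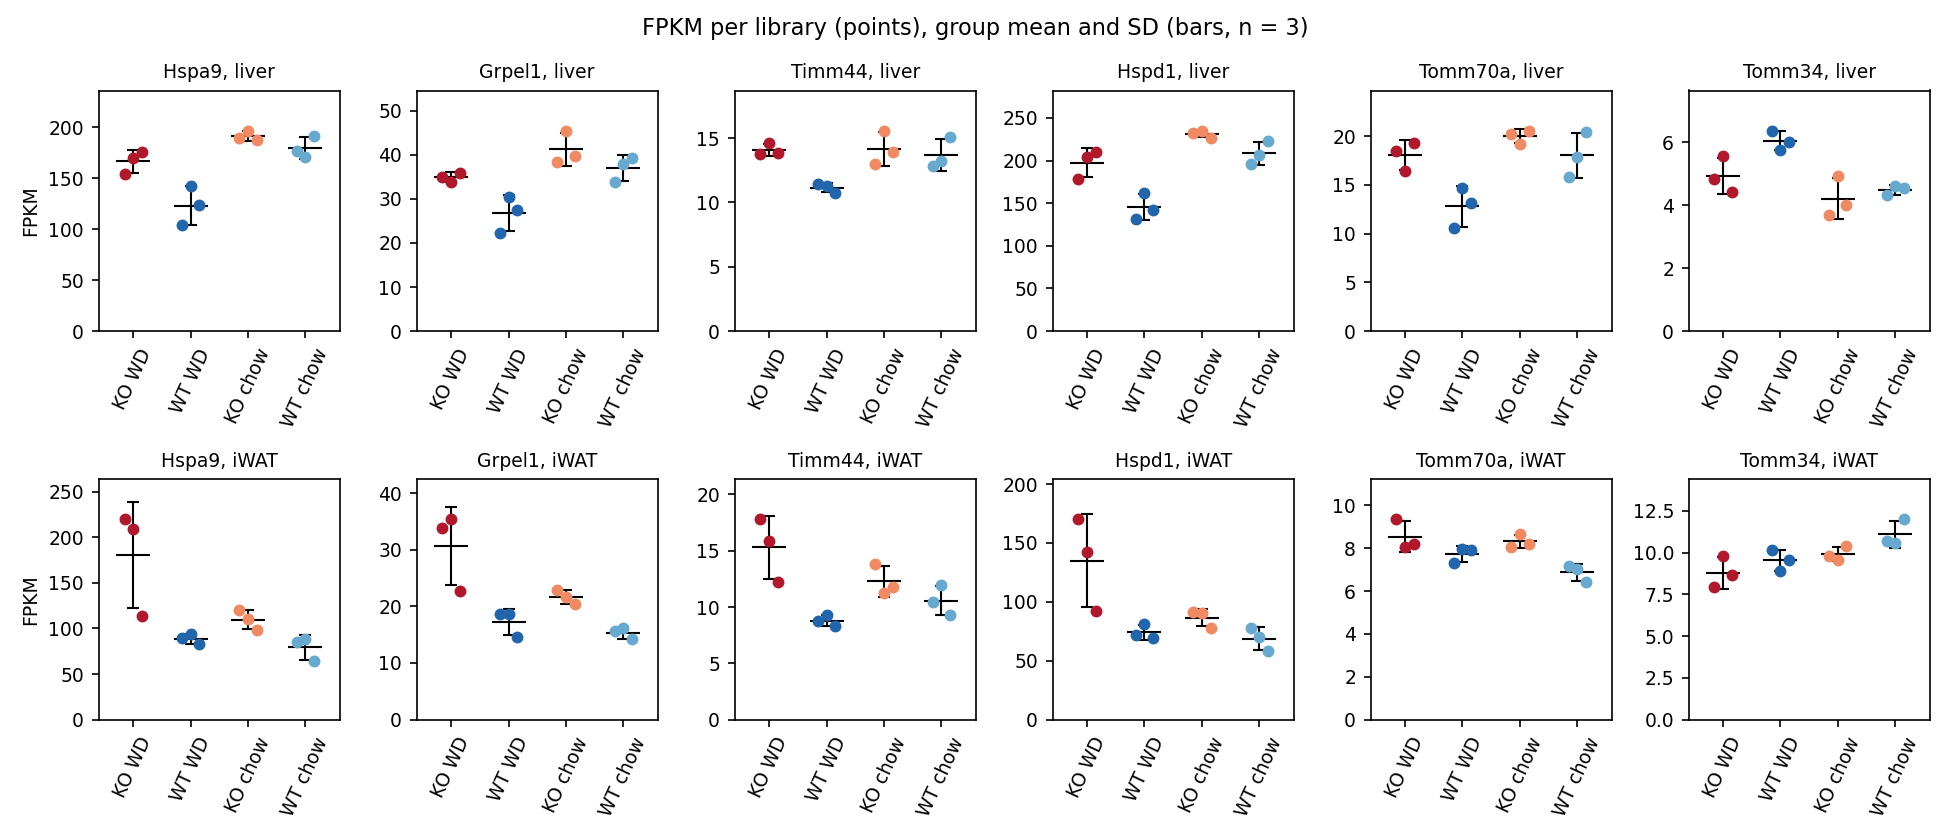
FPKM of 6 import genes in each library (points), with the group mean and SD (bars, n = 3), for liver in the upper row and iWAT in the lower row, groups from left to right KO WD, WT WD, KO chow and WT chow. In iWAT the KO WD points of Hspa9, Grpel1, Timm44 and Hspd1 lie above all WT WD points with library 3 the lowest of them, and in liver the WT WD points of these genes and Tomm70a lie lowest while those of Tomm34 lie highest.

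Markers of brown or beige adipocytes moved with these genes. The mean log2(FPKM + 1) of the 6 markers (Ucp1, Cidea, Cox7a1, Elovl3, Ppargc1a and Dio2) was 6.03, 5.91 and 4.26 in KO iWAT on WD, against 2.61, 2.70 and 0.92 in WT iWAT on WD, and on chow 4.05 to 4.90 in KO iWAT, against 1.42 to 1.80 in WT iWAT. Of the markers, 0 were at 0 in KO libraries and 1 (Elovl3) in 1 WT library, and their summed FPKM ranged from 245.0 to 1314 in KO iWAT, against 8.70 to 71.7 in WT iWAT. The library with the fewest marker transcripts among KO mice on WD, number 3, was also the lowest for Hspa9, Grpel1, Timm44, Hspd1 and Hspe1. It was not the lowest for the called gene Timm17a, nor for Tomm20, Tomm70a or Gfer. Reads of mitochondrially encoded genes made up 11.6%, 10.3% and 5.27% in KO iWAT on WD, against 3.42%, 3.29% and 2.49% in WT iWAT on WD. The part of these markers in the result was not tested. The 6 skeletal muscle markers summed to 1017, 10.2 and 21.7 FPKM in KO iWAT on WD, against 3289.5, 249.7 and 120.5 FPKM in WT iWAT on WD. These groups overlapped, as the highest KO library lay above all WT libraries but the highest. The mean log2(FPKM + 1) of 3 red cell markers was 6.51, 6.57 and 7.78 in KO iWAT on WD, against 9.78, 8.70 and 7.91 in WT iWAT on WD, lower in KO without overlap, and their summed FPKM ranged from 618.2 to 1635 in KO, against 1601 to 6922 in WT. The part of the muscle and red cell markers was not tested either.

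**Figure D3:**
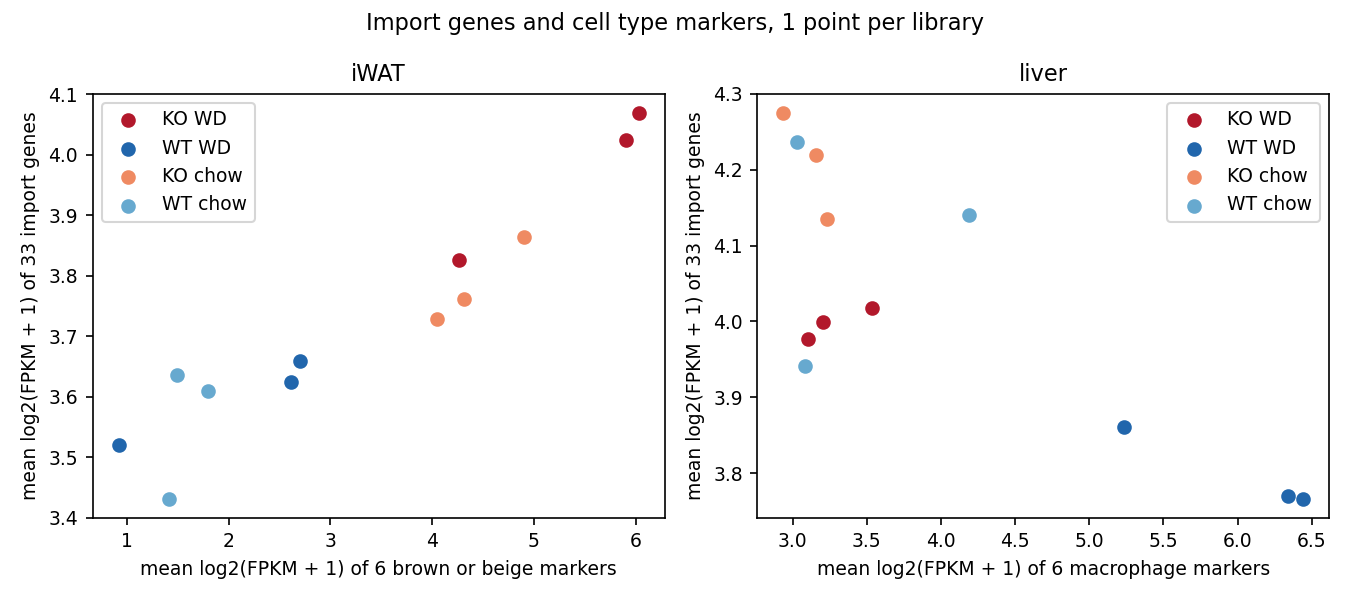
Mean log2(FPKM + 1) of the 33 import genes in each library (vertical axis) against that of 6 brown or beige markers in iWAT (left) and of 6 macrophage markers in liver (right), 1 point per library coloured by group. In iWAT the KO libraries lie up and to the right of all WT libraries, with KO WD libraries 1 and 2 highest on both axes, and in liver the 3 WT WD libraries lie lowest and furthest right.

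The count of 8 changed with single libraries. It was 0 without KO library 1, KO library 2, WT library 1 or WT library 3, 1 without WT library 2 and 13 without KO library 3, and it was 0 without the libraries that held muscle or acinar markers. DESeq2 on the recovered reads called 16 of the 33 higher and edgeR 11, whereas limma on these 2 groups alone called 0.

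On chow, no import gene passed the test between KO and WT iWAT, and 29 of the 33 log2 fold changes lay above 0. With limma 0 of 33 were called, as were 0% of all genes tested, and 10 had an unadjusted p under 0.05, all higher in KO. edgeR and DESeq2 also called 0. The libraries of the groups did not overlap for 16 genes that were higher in KO iWAT, against 5.86% of all genes tested, and for 1 that was lower, Tomm34, against 4.95%. On WD that was so for 23 genes, against 12.7% of all genes. The median log2 fold change of the 33 genes on chow was 0.22, against -0.01 over all genes.

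By complex, the small TIMs had the highest median log2 fold change on chow, 0.37, followed by the motor with 0.32. Grpel1 had 22.9, 21.7 and 20.4 FPKM in KO iWAT on chow, against 15.6, 16.1 and 14.2 FPKM in WT iWAT (log2 fold change 0.48 ± 0.16, adjusted p = 0.799). In the authors' deposited table, Grpel1 had a log2 fold change of 0.52 on chow with an adjusted p of 0.0417. Hspa9 had 120.0, 110.3 and 98.5 FPKM in KO iWAT on chow, against 85.6, 88.4 and 63.8 FPKM in WT iWAT. All 3 KO libraries lay above all 3 WT libraries for both genes. Hspd1 had 91.7, 90.1 and 78.1 FPKM in KO iWAT on chow, against 77.7, 70.4 and 58.2 FPKM in WT iWAT, and Hspe1 had 39.8, 36.2 and 39.7 FPKM in KO iWAT, against 34.2, 32.4 and 31.1 FPKM in WT iWAT. Both were just apart between the genotypes. Timm44 had 13.9, 11.2 and 11.8 FPKM in KO iWAT on chow, against 10.5, 11.9 and 9.32 FPKM in WT iWAT, and overlapped.

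The other named genes also lacked a call on chow. Tomm70a had 8.08, 8.67 and 8.22 FPKM in KO iWAT, against 7.18, 7.04 and 6.42 FPKM in WT iWAT. Chchd4 had 2.75, 2.90 and 2.92 FPKM in KO iWAT, against 2.66, 2.32 and 2.32 FPKM in WT iWAT, and Timm9 had 3.62, 3.32 and 3.96 FPKM in KO iWAT, against 2.34, 2.60 and 2.87 FPKM in WT iWAT. These 3 were higher in every KO library. Timm23 had 38.5, 27.7 and 26.8 FPKM in KO iWAT, against 38.2, 24.1 and 18.9 FPKM in WT iWAT, where library 1 of each genotype stood above the rest. Timm50 (20.8, 19.05 and 18.02 FPKM in KO iWAT, against 17.8, 18.1 and 14.1 FPKM in WT iWAT) and Tomm40 (8.60, 7.69 and 7.15 FPKM in KO iWAT, against 6.93, 7.54 and 5.94 FPKM in WT iWAT) overlapped. So did Tomm20, with 14.9, 14.98 and 14.7 FPKM in KO iWAT, against 13.6, 14.96 and 10.7 FPKM in WT iWAT. Samm50 had 12.6, 13.5 and 13.3 FPKM in KO iWAT, against 11.9, 13.6 and 9.39 FPKM in WT iWAT. Gfer had 11.1, 10.7 and 12.8 FPKM in KO iWAT, against 13.3, 12.2 and 10.99 FPKM in WT iWAT, and neither of the 2 separated the genotypes.

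Whether the genotype difference itself depended on the diet was tested as an interaction. In iWAT it was called for 0 of 33 genes by limma, edgeR and DESeq2 and for 0% of all genes by limma, and 1 gene, Timm44, had an unadjusted p under 0.05 (log2 difference 0.52 ± 0.19, adjusted p = 0.663). The larger count on WD is thus not shown to differ from that on chow.

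**Figure D4:**
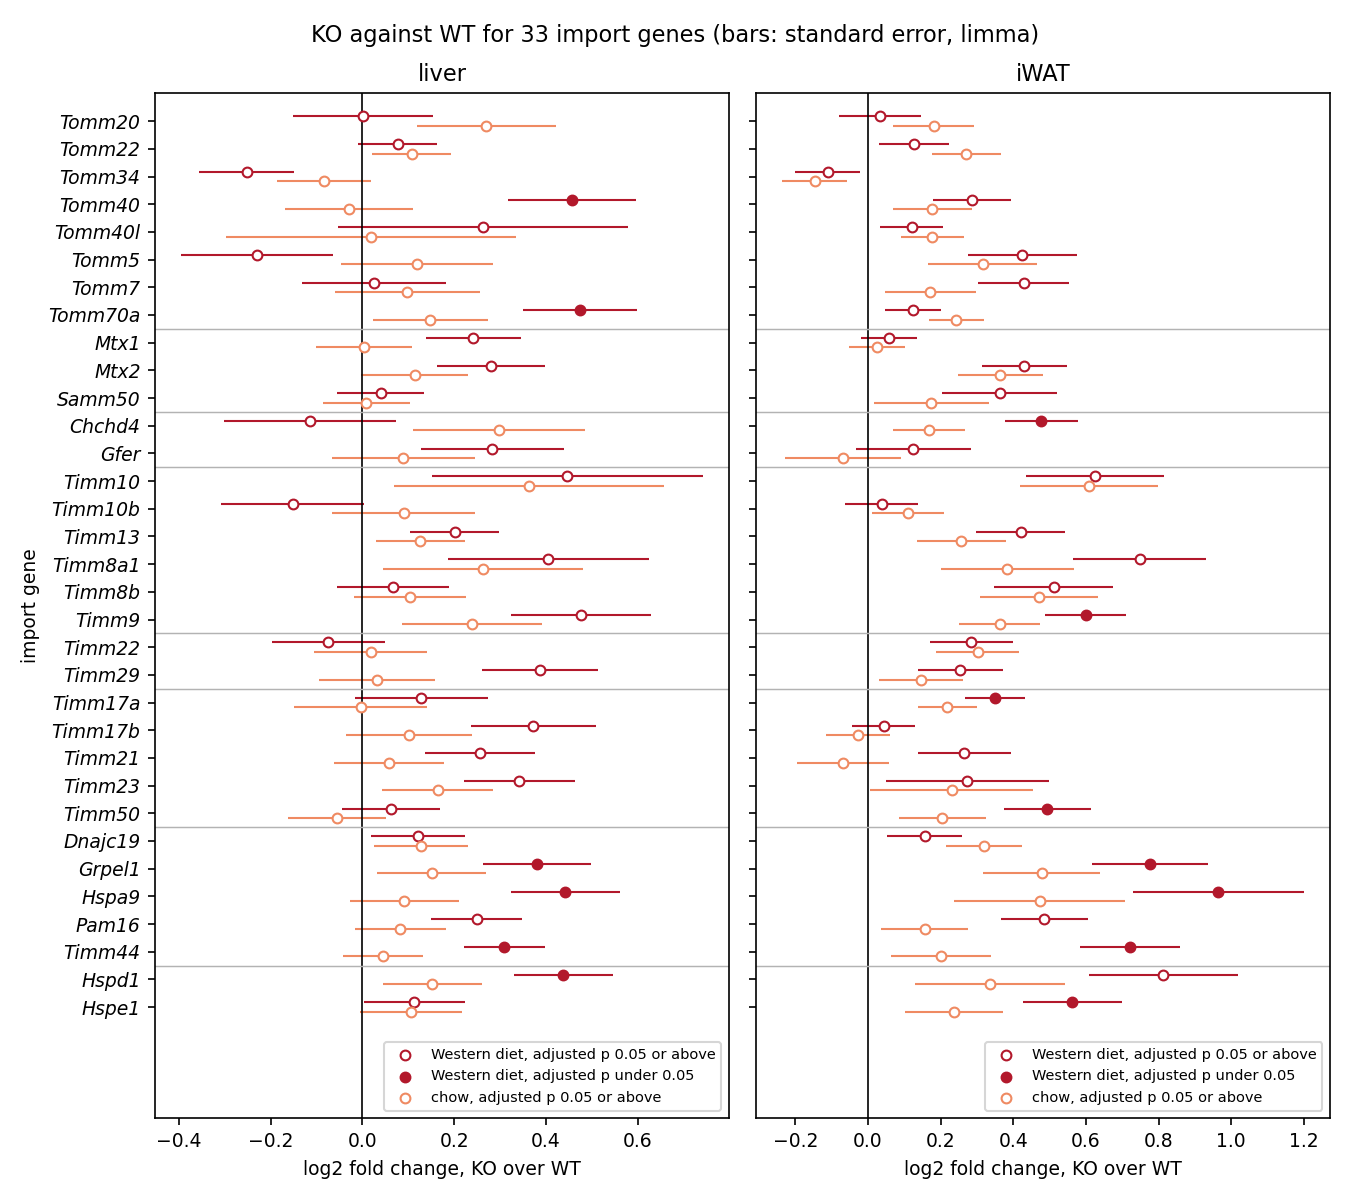
Log2 fold change of KO over WT with its standard error from limma for 33 import genes, in liver (left) and iWAT (right), on WD (dark red) and chow (light red), filled where the adjusted p is under 0.05. In iWAT 32 of 33 WD points and 29 of 33 chow points lie right of 0, and 8 WD points are filled, and in liver 6 WD points are filled. In liver on WD, 28 points lie right of 0 with the deposited scaling and 13 without it.

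In livers labelled WT, WD went with lower levels of import genes. Of 33 genes 12 fell, where 9.49% of all 14019 genes tested fell, and 1 rose, where 9.72% of all genes rose. The genes that fell were Timm9, Tomm40, Hspa9, Hspd1, Timm17b, Tomm70a, Grpel1, Timm21, Hspe1, Mtx2, Pam16 and Mtx1, and the one that rose was Tomm34, a cytosolic co-chaperone of Hsp70 and Hsp90 named after TOM. The median log2 fold change was -0.32 over the 33 genes, against -0.05 over all genes, and 31 of the 33 lay below 0. With the scaling factor undone, 1 gene was called, the rise of Tomm34, and 0 fell, 16 of the 33 lay above 0, and the members' median stood 0.21 below that of all genes, compared with 0.27 below with the deposited scaling.

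Timm9 had 4.67, 4.69 and 3.90 FPKM in WT liver on WD, against 5.21, 8.09 and 9.03 FPKM in WT liver on chow (log2 fold change -0.61 ± 0.15, adjusted p = 0.02). Tomm40 had 6.62, 6.95 and 6.06 FPKM on WD, against 7.85, 12.7 and 10.6 FPKM on chow (log2 fold change -0.57 ± 0.14, adjusted p = 0.0179). For both genes chow library 1 was the lowest chow library and still lay above all 3 WD libraries. Hspa9 had 104, 142 and 124 FPKM on WD, against 177, 171 and 191 FPKM on chow (log2 fold change -0.55 ± 0.12, adjusted p = 0.0107). Hspd1 had 132, 162 and 142 FPKM on WD, against 196, 206 and 223 FPKM on chow (log2 fold change -0.52 ± 0.11, adjusted p = 0.00972). These 2 kept their call in each of the 6 fits that left out 1 library of the comparison. Hspe1 had 67.1, 56.4 and 58.2 FPKM on WD, against 76.1, 80.3 and 84.2 FPKM on chow (log2 fold change -0.40 ± 0.11, adjusted p = 0.0292).

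At the outer membrane, Tomm70a had 10.6, 14.7 and 13.1 FPKM in WT liver on WD, against 15.8, 17.8 and 20.4 FPKM on chow (log2 fold change -0.47 ± 0.12, adjusted p = 0.0268). Tomm34 had 6.37, 5.77 and 6.02 FPKM on WD, against 4.32, 4.62 and 4.53 FPKM on chow (log2 fold change 0.36 ± 0.10, adjusted p = 0.0347), and its groups ran opposite to the rest without overlap. The ratio of Tomm34 to Tomm70a within a library, which no scaling can change, was 0.48 ± 0.11 on WD and 0.25 ± 0.03 on chow (SD, n = 3 each). Tomm20, with 10.7, 12.4 and 11.3 FPKM on WD, against 9.88, 15.3 and 14.9 FPKM on chow, overlapped because chow library 1 was low. Samm50 had 14.3, 17.3 and 13.5 FPKM on WD, against 16.02, 16.7 and 17.4 FPKM on chow. Mtx1 and Mtx2, the metaxins that complete the SAM complex, fell by 0.36 and 0.40 on the log2 scale (adjusted p = 0.037 and 0.0367), and 30.1% of the exonic bases of Mtx1 overlap Thbs3 and another gene on the other strand.

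At the inner membrane, Timm17b had 9.23, 9.47 and 10.2 FPKM in WT liver on WD, against 15.7, 10.7 and 16.4 FPKM on chow (log2 fold change -0.50 ± 0.14, adjusted p = 0.0292). Timm21, which links TIM23 to TOM, fell by 0.42 (adjusted p = 0.0358). Timm23 had 22.1, 28.1 and 23.7 FPKM on WD, against 27.2, 35.6 and 32.01 FPKM on chow, and Timm50 had 12.8, 12.6 and 11.2 FPKM on WD, against 13.5, 12.6 and 15.6 FPKM on chow. Neither of these passed the test. In the motor, Grpel1 had 22.3, 30.5 and 27.5 FPKM on WD, against 33.8, 37.97 and 39.4 FPKM on chow, without overlap (log2 fold change -0.46 ± 0.12, adjusted p = 0.0227), and Pam16 fell by 0.38 (adjusted p = 0.0242). Timm44 had 11.4, 11.3 and 10.7 FPKM on WD, against 12.8, 13.2 and 15.1 FPKM on chow, with no overlap and an adjusted p of 0.0534. In the relay, Chchd4 (2.54, 3.61 and 2.66 FPKM on WD, against 1.90, 3.31 and 3.73 FPKM on chow) and Gfer (15.4, 11.8 and 16.998 FPKM on WD, against 15.01, 19.96 and 18.1 FPKM on chow) overlapped between the diets.

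Markers of several cell types moved with the diet in WT liver. The mean log2(FPKM + 1) of 6 macrophage markers was 6.34, 5.23 and 6.44 in WT liver on WD, against 3.08, 4.19 and 3.03 in WT liver on chow, and that of 5 hepatocyte markers was 10.5, 10.7 and 10.4 on WD, against 11.7, 11.5 and 11.5 on chow. The summed FPKM of the macrophage markers, of which 0 were at 0, ranged from 540.3 to 1416 on WD, against 128.9 to 569.2 on chow. Which cells held the transcripts of the epithelial list (Krt18, Krt8 and Epcam) was not measured. White adipocyte markers and that list were also higher in all 3 WD libraries, with summed FPKM of 32.3 to 55.5 and 580.9 to 760.7 on WD, against 7.18 to 19.8 and 209.9 to 405.4 on chow. Their part in the result was not tested. The count of 13 called genes was 3 without chow library 3 or WD library 3, 4 without WD library 1, 6 without chow library 2, 2 without the libraries that held muscle or acinar markers, and 0 in a fit of these 2 groups alone.

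In livers labelled KO the diet left no import gene called by limma. With limma 0 of 33 genes were called, where 0.421% of all genes tested were, 5 had an unadjusted p under 0.05, all lower on WD, edgeR called 0 and DESeq2 called 1, Hspe1. The median log2 fold change was -0.21 over the 33 genes, against 0.01 over all genes, and 2 of the 33 lay above 0. Groups did not overlap for 19 genes that were lower on WD, against 12.5% of all genes, and for 0 that were higher, against 14.2%. In livers labelled WT, 17 genes were lower on WD in this way, against 19.2% of all genes, and 1 was higher, against 15.2%. Hspe1 had 60.01, 65.1 and 71.4 FPKM in KO liver on WD, against 78.1, 96.3 and 85.4 FPKM in KO liver on chow, without overlap (log2 fold change -0.40 ± 0.11, adjusted p = 0.15). Tomm20 had 11.4, 11.2 and 11.8 FPKM on WD, against 14.4, 15.4 and 18.7 FPKM on chow, also without overlap. Hspd1 had 178, 204 and 210.2 FPKM on WD, against 233, 235 and 227 FPKM on chow, and Hspa9 had 154, 169.7 and 175 FPKM on WD, against 189, 197 and 188 FPKM on chow. All 3 WD libraries lay below all 3 chow libraries for both. The mean log2(FPKM + 1) of the hepatocyte markers was 11.1, 11.1 and 11.3 in KO liver on WD, against 11.5, 11.6 and 11.6 in KO liver on chow, and did not overlap either. Their part in the values was not tested.

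On WD, the livers labelled KO held more of several import genes than the livers labelled WT. Of 33 genes 6 rose and 0 fell, where 10.6% of all genes tested rose and 21.0% were called in either direction. The 18.2% of import genes called is thus not above the share of all genes called in either direction. The 6 were Tomm70a and Tomm40 of TOM, Hspa9, Grpel1 and Timm44 of the motor, and Hspd1. The median log2 fold change was 0.25 over the 33 genes, against 0.07 over all genes. With the scaling factor undone the members' median was -0.04, against -0.17 over all genes, 13 of 33 lay above 0, and 1 gene was called, Tomm34, which fell. Relative to all genes the members' median stood 0.18 higher with the deposited scaling and 0.14 higher without it.

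The WT libraries of this comparison are those of the diet comparison above, so the same 3 libraries stand behind both. Tomm70a had 18.5, 16.4 and 19.3 FPKM in livers labelled KO, against 10.6, 14.7 and 13.1 FPKM in livers labelled WT (log2 fold change 0.47 ± 0.12, adjusted p = 0.0238). Tomm40 had 8.98, 10.4 and 8.73 FPKM in livers labelled KO, against 6.62, 6.95 and 6.06 FPKM in livers labelled WT (log2 fold change 0.46 ± 0.14, adjusted p = 0.0416). Hspa9 had 154, 169.7 and 175 FPKM in livers labelled KO, against 104, 142 and 124 FPKM in livers labelled WT (log2 fold change 0.44 ± 0.12, adjusted p = 0.0253). In all 3 genes the lowest KO library lay above the highest WT library. Hspd1 had 178, 204 and 210.2 FPKM in livers labelled KO, against 132, 162 and 142 FPKM in livers labelled WT (log2 fold change 0.44 ± 0.11, adjusted p = 0.0183). Grpel1 and Timm44 had log2 fold changes of 0.38 ± 0.12 and 0.31 ± 0.09 (adjusted p = 0.0449 and 0.0314). Timm44 had 13.7, 14.6 and 13.8 FPKM in livers labelled KO, against 11.4, 11.3 and 10.7 FPKM in livers labelled WT, and was tight within both groups.

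Partners of these genes had no call. Hspe1 had 60.01, 65.1 and 71.4 FPKM in livers labelled KO, against 67.1, 56.4 and 58.2 FPKM in livers labelled WT, with overlap, so the ratio of Hspd1 to Hspe1 within a library was 3.01 ± 0.10 in livers labelled KO and 2.43 ± 0.46 in livers labelled WT (SD, n = 3 each). Timm23 had 31.1, 28.7 and 34.4 FPKM in livers labelled KO, against 22.1, 28.1 and 23.7 FPKM in livers labelled WT, without overlap and with all 3 KO values higher (adjusted p = 0.07). Timm50 had 11.3, 13.5 and 13.7 FPKM in livers labelled KO, against 12.8, 12.6 and 11.2 FPKM in livers labelled WT. Tomm20 had 11.4, 11.2 and 11.8 FPKM in livers labelled KO, against 10.7, 12.4 and 11.3 FPKM in livers labelled WT. Neither separated the groups. Samm50 had 15.1, 16.2 and 14.98 FPKM in livers labelled KO, against 14.3, 17.3 and 13.5 FPKM in livers labelled WT, and Chchd4 had 2.32, 2.49 and 3.07 FPKM in livers labelled KO, against 2.54, 3.61 and 2.66 FPKM in livers labelled WT. Gfer had 18.5, 16.1 and 19.4 FPKM in livers labelled KO, against 15.4, 11.8 and 16.998 FPKM in livers labelled WT. All 3 overlapped. Groups did not overlap for 15 genes that were higher in livers labelled KO, against 25.4% of all genes, and for 2 that were lower, Timm10b and Tomm34, against 17.5%. Tomm34 had 4.83, 5.56 and 4.42 FPKM in livers labelled KO, against 6.37, 5.77 and 6.02 FPKM in livers labelled WT.

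Macrophage markers had a mean log2(FPKM + 1) of 3.11, 3.53 and 3.20 in livers labelled KO on WD, against 6.34, 5.23 and 6.44 in livers labelled WT, and hepatocyte markers 11.1, 11.1 and 11.3 in livers labelled KO, against 10.5, 10.7 and 10.4 in livers labelled WT. The list of Krt18, Krt8 and Epcam and the markers of lymphocytes and white adipocytes were lower, and those of skeletal muscle higher, in all 3 livers labelled KO than in all 3 labelled WT. Their part in the result was not tested. The count of 6 was 0 without KO library 3, WT library 1 or WT library 3, 1 without KO library 2 and 2 without KO library 1. edgeR called 2 of the 33 and DESeq2 3.

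On chow the genotype left no call in liver. With limma 0 of 33 import genes were called, as were 0% of all genes tested, 0 had an unadjusted p under 0.05, and edgeR and DESeq2 called 0. Hspd1 had 233, 235 and 227 FPKM in KO liver, against 196, 206 and 223 FPKM in WT liver, the 1 gene of the 33 whose groups did not overlap with KO higher, against 4.59% of all genes. Hspa9 had 189, 197 and 188 FPKM in KO liver, against 177, 171 and 191 FPKM in WT liver, and overlapped. Of the remaining genes, Grpel1 had 38.4, 45.5 and 39.9 FPKM and Timm44 12.96, 15.6 and 13.9 FPKM in KO liver on chow, overlapping the WT chow values given above. The pore Tomm40 had 10.04, 9.85 and 10.1 FPKM and Tomm70a 20.2, 19.2 and 20.6 FPKM in KO liver, tighter than the same genes in WT liver. Timm23 had 33.7, 35.4 and 37.1 FPKM, Timm50 13.6, 14.2 and 12.1 FPKM and Samm50 17.2, 17.5 and 15.9 FPKM in KO liver. In the relay, Chchd4 had 3.17, 3.93 and 4.34 FPKM and Gfer 16.9, 17.4 and 22.3 FPKM in KO liver, which overlapped the WT chow livers as did the others. The interaction of genotype and diet in liver was called for 0 of 33 genes by limma, edgeR and DESeq2, where limma called 0.549% of all genes. There 1 gene, Tomm40, had an unadjusted p under 0.05, with a log2 difference of 0.49 ± 0.20 (adjusted p = 0.258).

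Diet alone left no import gene called in iWAT by limma. In WT iWAT 0 of 33 were called, where 2.12% of all genes were, 3 genes higher and 2 lower on WD had an unadjusted p under 0.05, edgeR called 0 and DESeq2 called 1, the small TOM subunit Tomm7, as lower. Tomm7 had 32.6, 27.8 and 24.6 FPKM in WT iWAT on WD, against 40.2, 36.9 and 32.4 FPKM in WT iWAT on chow, with WD library 1 inside the chow range. In KO iWAT 0 of 33 were called, where 0% of all genes were, 8 had an unadjusted p under 0.05, all higher on WD, edgeR called 0 and DESeq2 called 1, Timm17a. Timm17a had 8.01, 7.01 and 7.77 FPKM in KO iWAT on WD, against 6.25, 6.05 and 5.49 FPKM in KO iWAT on chow, and Hspd1 had 170.3, 142 and 92.4 FPKM on WD, against 91.7, 90.1 and 78.1 FPKM on chow. Neither overlapped. In WT iWAT, skeletal muscle and red cell markers were also higher in all 3 WD libraries than in all 3 chow libraries.

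Liver and iWAT used the import genes in different proportions. In WT mice on chow 21 of 33 genes were higher in liver, where 32.5% of all genes were, and 3 were lower, where 31.5% were. The median log2 difference was 0.51 over the 33 genes and -0.003 over all genes. With the scaling factor undone 8 were called higher and 15 lower and the members' median was -0.27, still 0.34 above that of all genes. Timm8a1, a small TIM whose human counterpart is mutated in a deafness and dystonia syndrome, had 12.6, 22.4 and 23.4 FPKM in WT liver, against 3.64, 4.17 and 3.16 FPKM in WT iWAT on chow (log2 difference 2.09 ± 0.21, adjusted p = 5.19e-08). Hspd1, Hspe1 and Tomm70a were also higher in liver, by 1.59, 1.27 and 1.27 (adjusted p = 7.71e-08, 2.62e-08 and 2.54e-09), and these 4 kept their call and direction in all 13 alternatives. Tomm34 had 4.32, 4.62 and 4.53 FPKM in WT liver, against 10.7, 10.6 and 12.01 FPKM in WT iWAT (log2 difference -1.14 ± 0.09, adjusted p = 3.29e-09), and also kept its call. Tomm7 and Timm17a were lower in liver, at log2 differences of -0.41 and -0.30 (adjusted p = 0.0174 and 0.0344). Of the 13 alternatives, Tomm7 lost its call in 2 and Timm17a in 5, and 2 and 4 of these were among the 6 fits without 1 library.

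Ratios of related genes within a library are free of any scaling, and 3 of the 7 computed separated the tissues. Timm17a over Timm17b was 0.19 to 0.32 in the 12 liver libraries, against 0.71 to 1.32 in the 12 iWAT libraries, so the channel's 2 partners were near parity in iWAT and Timm17b was in excess in liver. Timm8a1 over Timm8b was 0.20 to 0.44 in liver, against 0.07 to 0.14 in iWAT, and Tomm34 over Tomm70a was 0.18 to 0.60 in liver, against 0.85 to 1.87 in iWAT. The other 4 overlapped: Hspa9 over Grpel1 was 4.32 to 5.23 in liver, against 4.51 to 6.50 in iWAT, and Hspd1 over Hspe1 was 1.97 to 3.13 in liver, against 1.87 to 3.58 in iWAT. Timm10 over Timm9 was 1.94 to 3.31 in liver, against 2.71 to 5.05 in iWAT, and Tomm40l over Tomm40 was 0.25 to 0.52 in liver, against 0.23 to 0.29 in iWAT. Of the exonic bases of Tomm40l, 64.3% lie under Nr1i3 on the other strand, and of those of Timm8b 15.6% lie under Nkapd1. The strandedness is not known, so reads of those genes could enter the ratios with Tomm40l and Timm8b. Within iWAT, Timm17a over Timm17b was 1.25 ± 0.07 in KO on WD and 0.99 ± 0.17 in WT on WD, and 0.92 ± 0.07 in KO on chow and 0.75 ± 0.04 in WT on chow (SD, n = 3 each). KO and WT did not overlap on either diet, but 3 libraries against 3 cannot give a 2-sided exact permutation p under 0.1.

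**Figure D5:**
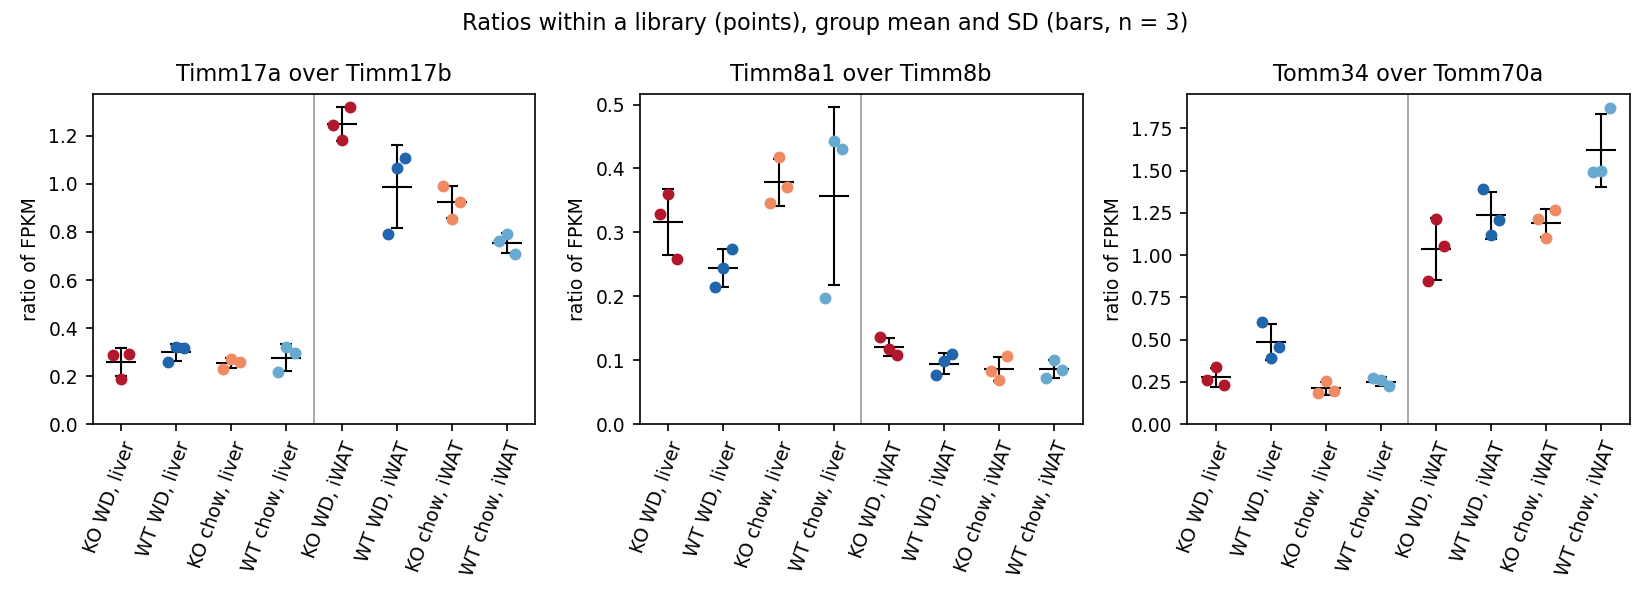
Ratio of FPKM of 2 related import genes within each library (points), with the group mean and SD (bars, n = 3), liver groups left and iWAT groups right of the line. Timm17a over Timm17b and Tomm34 over Tomm70a lie higher in every iWAT library than in any liver library and Timm8a1 over Timm8b lies lower, and within iWAT the KO points of Timm17a over Timm17b lie above the WT points of the same diet.

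Genes that work beside the import machinery were counted in the same fits. In iWAT on WD, where 3.2% of all genes tested rose, 2 of 7 presequence-cleaving enzymes rose in KO mice, among them Pmpcb (the catalytic subunit of the processing peptidase) with a log2 fold change of 0.79 and Immp2l (of the inner membrane peptidase) with 0.68. Of 10 further insertion and import factors 5 rose, led by Dnajc15, a J-protein paralog of Dnajc19, with 0.82, Bcs1l with 0.70 and the outer membrane insertase Mtch2 with 0.76. Of 11 mitochondrial proteases and chaperones 3 rose: the proteases Afg3l2 (0.69) and Lonp1 (1.06) and the co-chaperone Dnaja3 (0.99). Of 17 twin-cysteine proteins, which enter through the relay of Chchd4, 6 rose, with Chchd10 the furthest of those named at 2.39, then Coa5 at 0.74 and Cox19 at 0.56. Of 7 MICOS genes, which shape the cristae, 4 rose, among them Apool (0.50), Immt (0.69) and Chchd3 (0.67). Of 10 cytosolic chaperones of import and 3 porins, 0 were called by limma, edgeR or DESeq2, and 0 and 2 of them had an unadjusted p under 0.05 in limma.

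In WT liver on WD against chow, where 9.49% of all genes tested fell, genes of the same lists fell. They were 1 of 7 presequence-cleaving enzymes (Xpnpep3, -0.39), 3 of 10 further import factors (Mtch2, -0.29, Timmdc1, -0.36, and Oxa1l, -0.30) and 4 of 11 proteases and chaperones (Dnaja3, -0.61, Afg3l2, -0.51, and Clpp, -0.49, among them). Timmdc1, counted with the further import factors here and below, is a complex I assembly factor. The 1 of 7 is near the share of all genes, and of the further import factors edgeR called 0 and DESeq2 1. Of 16 twin-cysteine proteins 6 fell, among them Chchd10 (-0.91), Cmc1 (-0.58) and Chchd2 (-0.51). The porin Vdac1, through which metabolites cross the outer membrane, fell by 0.59, and 3 of 10 cytosolic chaperones fell (Dnajb6, -0.66, Naca, -0.32, and Btf3, -0.26), where edgeR called 1 and DESeq2 4. With the scaling factor undone, Mtch2, Oxa1l, Naca and Btf3 had log2 fold changes of 0.03, 0.02, 0.01 and 0.08, above 0, and no call. For livers labelled KO against WT on WD, where 10.6% of all genes tested rose, the genes that rose were 1 of 7 presequence-cleaving enzymes (Pmpca, 0.32), 3 of 10 further import factors (Mtx3, 0.77, Timmdc1, 0.42, and Mtch2, 0.33), 4 of 11 proteases and chaperones (with Dnaja3, 0.58) and 4 of 16 twin-cysteine proteins (with Chchd10, 0.80). In that comparison the 1 of 7 is near the share of all genes. There edgeR and DESeq2 called 0 and 0 of the presequence-cleaving enzymes, 1 and 2 of the proteases and chaperones, and 2 and 4 of the twin-cysteine proteins. The deposited scaling stands behind these liver counts too.

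Other mitochondrial gene sets had calls in the same comparisons. In iWAT on WD, 17 of 37 nuclear complex I subunits and 17 of 77 mitochondrial ribosomal proteins rose in KO mice, with median log2 fold changes of 0.67 and 0.34, beside 8 of 33 and 0.36 for the import genes and 3.2% of all genes tested. In WT liver on WD against chow, 23 of 37 and 21 of 77 fell, with medians of -0.42 and -0.26, beside 12 of 33 and -0.32 and 9.49% of all genes tested. In iWAT, DESeq2 called 30 and 36 of these 2 sets, and in WT liver edgeR called 12 of the ribosomal proteins. The differences between the sets were not tested.

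In the authors' deposited table for iWAT on WD, Hspa9 had a log2 fold change of KO over WT of 1.06 with an adjusted p of 0.00194, Grpel1 0.86 with 0.00476, Timm44 0.83 with 0.000792 and Hspd1 0.89 with 0.00634. In the authors' deposited table for liver on WD, Timm9 had 0.53 with 0.00905, Tomm40 0.48 with 0.00988, Tomm70a 0.46 with 0.0202, Hspa9 0.40 with 0.0338 and Hspd1 0.40 with 0.0162. Grpel1 and Timm44, which limma called in liver, had 0.35 with 0.0805 and 0.30 with 0.0731 in the authors' deposited table. Hspd1 in iWAT and Timm9 in liver were not called by limma.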

How the data were processed

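RNA of 24 libraries was captured on poly-T beads and sequenced from both ends, per the labels. HISAT2 2.0.5, DESeq2 1.20.0 and the build mm10 appear in the submitters' processing notes, without roles. No source used here gives the counter or the strandedness. The values are the authors' FPKM per gene, per the file headers. Multiplying them by gene length and 1 constant per library gave whole reads within 0.01 for 540911 of 540911 values above 0, and 64434 of 64434 deposited read counts that could be compared equalled these reads. The constant implies a library size of 0.769 to 1.07 times the recovered reads in liver, 1.02 ± 0.0465 (SD, n = 3) in WT WD liver, and 1.24 to 1.60 times in iWAT. The authors' tables of KO against WT also hold their log2 fold change, p-value and adjusted p-value, per the file headers. A further 80 columns of values per library were not used.

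Genes with a mean of at least 0.5 FPKM over a tissue's 12 libraries were tested with limma 3.58.1 (R 4.3.3) on log2(FPKM + 1), with the 4 groups of a tissue in 1 model, a robust prior and a trend in the variance. Fold changes are on that scale, which shrinks low genes. Benjamini-Hochberg adjustment of p-values ran over all genes tested, 14019 in liver, 14685 in iWAT and 15254 in the fit of both tissues, and a gene was called under 0.05. Alternatives with edgeR 4.0.16 and DESeq2 1.42.0 used the recovered reads. The fit was tested on simulated data with the same dispersion for every gene and libraries scaled by their total reads. That simulation held neither the deposited scaling factor nor libraries apart by markers of another tissue, so it cannot cover their effect on the calls. Nothing in the labels says that the 3 libraries of a group are from separate animals, so p-values measure the spread between libraries. Deviations of KO and WT libraries with the same number had r = 0.184, 0.127 and 0.407 in chow iWAT, the 1 comparison with all 3 over 0.1. For number 2 the highest r with another number was 0.258, above its 0.127, so pairing by number is not clear. A replicate block changed no call among the import genes in chow iWAT and called 1 of all genes tested, against 0 without it.

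Members, gene lists and tests were chosen with earlier results of these data known. The text gives every library's value for 12 members (Hspa9, Hspd1, Hspe1, Timm23, Timm44, Timm50, Tomm20, Tomm40, Tomm70a, Samm50, Chchd4 and Gfer) in the comparisons that bear on them, for up to 4 called members with the largest rise and 4 with the largest fall per comparison, and names up to 3 called genes of every other list by smallest p. Of the 36 members, 34 have the same coordinates in GENCODE vM21, from which exon overlaps were taken. Promoters came from RefSeq (GRCm38.p6), which matched 32 members by symbol. Hspd1, Hspe1 and Hspa9 have 5, 6 and 1 named pseudogenes, at most 9.51 FPKM, that could share reads.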

Additional observations from a re-analysis of the deposited data

Results flagged for a closer look

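For 10 pairs of values, every WD library lay on 1 side of every chow library in liver and on the opposite side in iWAT. In WT mice 5 members were lower in liver and higher in iWAT in this way, and 1 the reverse, against 1.86% and 0.659% of the 12296 genes tested in both tissues, and in KO mice 4 and 0 were, against 0.911% and 0.415%. The genes below were chosen for this pattern, and the difference between the tissues was not tested. In WT mice the log2 fold change of WD over chow was -0.57 in liver and 0.25 in iWAT for the pore Tomm40, -0.47 and 0.15 for the receptor Tomm70a, -0.23 and 0.19 for the central receptor Tomm22, -0.40 and 0.32 for the metaxin Mtx2, and -0.32 and 0.18 for Timm17a. Tomm34 ran the other way, at 0.36 in liver and -0.20 in iWAT. In KO mice the values were -0.23 in liver and 0.59 in iWAT for Hspd1, -0.41 and 0.18 for Chchd4, -0.21 and 0.37 for Pam16, and -0.24 and 0.39 for Mtx2. Mtx2 is the 1 gene on this list under both genotypes. Of these values, only those of Tomm40, Tomm70a, Mtx2 and Tomm34 in WT liver passed the test across all genes. With the deposited scaling undone, Tomm22 turned to 0.10 in WT liver, Tomm40, Tomm70a, Mtx2 and Timm17a moved to -0.27, -0.14, -0.08 and -0.06 there, and Tomm34, at 0.64, was the 1 of these values that passed the test.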

How the results depend on the processing

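Counts of called import genes depended on the processing in every comparison that had calls. For livers labelled KO against WT on WD, the count of 6 became 3 with no filter on low values, 3 with TMM scaling, 3 with median-of-ratios scaling, 1 with quantile normalization, 14 with library weights (13 higher, 1 lower), 2 with edgeR, 3 with DESeq2 and 1, a fall, with the scaling undone. Leaving out 1 library gave 0 to 6. For WD against chow in WT liver, the count of 13 became 7 with no filter, 5 with quantile normalization, 0 with only these 2 groups, 2 without the libraries with muscle or acinar markers and 1, a rise, with the scaling undone. Leaving out 1 library gave 3 to 15. For KO against WT on WD in iWAT, the count of 8 became 0 with no filter, 0 with only these 2 groups, 0 without the libraries with muscle or acinar markers, 2 with the scaling undone, 16 with library weights and 16 with DESeq2. Leaving out 1 library gave 0 to 13. Counts of 0 became 1 with DESeq2 for WD against chow in KO liver, WT iWAT and KO iWAT, and 1 with library weights in WT iWAT. For liver against iWAT the count of 24 became 23 with the scaling undone, 8 higher and 15 lower. Within a tissue, none of the called import genes changed sign under the alternatives run. For liver against iWAT only the 4 largest rises and the 3 falls were followed, and these kept their sign. As 15 were lower there with the scaling undone, against 3 with it, some of the remaining genes called higher did change sign. Of the called genes named from the other lists, Mtch2, Oxa1l, Naca and Btf3 turned above 0 in WT liver with the scaling undone, and Btf3 also with quantile normalization. With the replicate number as a replicate block the counts were 6, 10 and 12 in these first 3 comparisons, and no count of 0 import genes changed. Only the chow iWAT numbers met the condition for pairs. The causes were not tested, beyond the fewer libraries or rescaled values of each setting. Depth limits Timm10b most, with 32 to 75 reads per library in liver and 76 to 137 in iWAT.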

Other observations

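Regulators of mitochondrial biogenesis and of the mitochondrial stress response had calls in the same comparisons. In iWAT on WD, where 3.2% of all genes tested rose, 2 of 12 biogenesis regulators rose in KO mice, Ppargc1b with a log2 fold change of 1.26 and the nuclear receptor Esrra with 0.67, and of 9 stress response regulators 0 were called by limma or edgeR, 1 by DESeq2, and 1 had an unadjusted p under 0.05 in limma. In WT liver on WD against chow, where 9.49% of all genes tested fell, 3 of 12 biogenesis regulators fell, Tfam, which packages mitochondrial DNA (-0.55), Tfb2m, a mitochondrial transcription factor (-0.45), and Gabpa, the ETS factor whose core was searched in the promoters (-0.35), and edgeR called 1 of these and DESeq2 3. In livers labelled KO against WT on WD, 2 of the 12 rose, Tfam and Tfb2m (0.42 and 0.60), where 10.6% of all genes tested rose. The 16.7% called is not above the 21.0% of all genes called there in either direction. Of the 9 stress response regulators, 2 were called in WT liver on WD against chow, or 22.2%, near the 19.2% of all genes tested. The hormone Fgf21 rose by 2.50 and Cebpb fell by 0.83. In livers labelled KO against WT on WD, 2 of the 9 were called, or 22.2%, near the 21.0% of all genes tested. There Fgf21 fell by 1.19 and Cebpb rose by 0.96. These liver comparisons share the WT WD libraries.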
